A study of Homo sapiens with 12 samples.

Results

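ASTX660 alone was compared with solvent in ML-2 cells, an established human line of acute myeloid leukaemia, on 6 of the 12 arrays of the series. The 3 ASTX660 arrays came from cells kept in solvent for 24 h and then given 5 µM ASTX660 for 9 h, and the 3 solvent arrays from cells given solvent at both steps. All 6 were chosen by their labelled treatment. The remaining 6 arrays held cells given 2 µM SGI-110 (guadecitabine, a hypomethylating agent that releases decitabine), either for 33 h or for 24 h before 5 µM ASTX660 was added for 9 h. They entered here for the estimate of the spread and for a comparison with ASTX660 given after SGI-110. Each group was drawn from 3 independent experiments, and its titles carry the numbers 2, 9 and 13, taken here to mark the experiment. All cells were of a single line at a single dose and time.

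ASTX660 is an antagonist of inhibitor of apoptosis proteins (IAPs). cIAP1 and cIAP2, encoded by BIRC2 and BIRC3, are ubiquitin ligases that act on RIPK1 at the TNF receptor and keep the kinase NIK (MAP3K14) low, and XIAP binds and blocks caspases. Loss of the cIAPs is known to let NIK accumulate, to turn on non-canonical NF-kB signalling and, where TNF is present, to allow death through caspase-8. These steps act on proteins, and the arrays measured RNA. The genes described first belong to another pathway, sterol synthesis. Cells make cholesterol from acetyl-CoA through mevalonate, farnesyl diphosphate, squalene and lanosterol, and the genes of these steps are known as targets of the SREBP transcription factors, which are released when membrane sterol is low.

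Values are log2 intensities after RMA (robust multi-array averaging), so a difference of 1 is a 2-fold ratio of intensities. A gene was read from its brightest probe set, and 12689 genes were tested. ASTX660 array 2 stood apart. It lay outside the range of the other 5 arrays in 59.2% of genes, against 24.7% to 35.9% for each of the others. On the first principal component of the 6 arrays (40.1% of the variance) it scored -18.87, with the others between 1.83 and 7.91. The second component (30.6%) set both arrays numbered 13 apart, at 10.97 and 9.48. For ACTB the 3′ control probe set minus the 5′ control probe set was 0.077 on ASTX660 array 2 and between -0.043 and 0.002 on the other 5. For GAPDH that difference was -0.023 on array 2, within the range of the others (-0.062 to -0.016). Results are given with and without array 2 where it matters. Arrays of the same number deviated together, so values within same-number pairs are given as well.

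No gene passed the test at the threshold of an adjusted p under 0.05 when ASTX660 was compared with solvent without pairing (0 of 12689 genes, 0%, smallest limma adjusted p = 0.632). At an unadjusted p under 0.05 there were 894 genes (7.05%), 526 higher (4.15%) and 368 lower (2.9%), where 634 would be expected by chance. That split turned on the scaling, with 268 of 742 higher after quantile normalization and 718 of 970 after median centring. The 3 ASTX660 arrays lay entirely above the 3 solvent arrays in 963 genes (7.59%) and entirely below them in 594 (4.68%). Differences were small. They ran from -0.6 to 0.64 with a median of 0.0284 (0.00859 without array 2), 8 genes differed by 0.5 or more and none by 2-fold. The 95% interval lay within 1.5-fold either way for 97.8% of genes, and the median standard error was 0.085. In a bulk culture, fewer cells of a kind and less RNA per cell cannot be told apart.

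With the title number as a block, 1 of 12689 genes was called (0.00788%), and it was LSS, which encodes lanosterol synthase, the enzyme that cyclises squalene epoxide to lanosterol, the first sterol of the pathway. LSS (NCBI gene 4047) measured 8.89, 9.08 and 8.77 on ASTX660 arrays 2, 9 and 13, and 8.37, 8.57 and 8.45 on the solvent arrays. Every ASTX660 array was above every solvent array. The difference was 0.45 (SE 0.0906, 1.367-fold, 95% interval 0.26 to 0.64, n = 3 against 3), with pair differences of 0.52, 0.51 and 0.32. Its limma adjusted p was 0.632 without the block and 0.00765 with it. Without ASTX660 array 2 the blocked difference was 0.43 and its adjusted p 0.0446. The blocked adjusted p was 0.0735 without ASTX660 array 9, 0.218 without solvent array 2 and 0.166 without solvent array 9, so each of these ended the call. Both bright LSS probe sets were higher with ASTX660, by 0.25 and 0.45.

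A paired fit on the 6 arrays alone called 34 genes (0.268%), 21 higher and 13 lower, and a gene is said to have risen or fallen only where this fit or the preceding one called it. Paired adjusted p-values are those of this fit. It has 2 residual degrees of freedom, so each gene's spread is drawn largely from genes of like intensity. Without that intensity trend, or with the mean of all probe sets per gene, it called 0 genes (1588 and 1553 at an unadjusted p under 0.05). After median centring it called 119, 87 of them higher.

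Sterol synthesis genes were higher with ASTX660 along most of the pathway. Of 20 listed genes 16 were tested, and 15 had a difference above 0, as had 8071 of all 12689 tested genes. Their median was 0.233, beside 0.0284 for all tested genes, and 0.213 without array 2. The median was 0.31, 0.215 and 0.17 within the pairs numbered 2, 9 and 13, so pair 2 gave the largest median and the other pairs were also above 0. The ASTX660 arrays lay entirely above the solvent arrays in 11 of the 16, and 14 of the 16 were higher in all 3 pairs, as were 25.2% of all tested genes. The paired fit of 6 arrays called 7 of the 16, all higher. This list was chosen with earlier results of these data known, and its direction is no independent evidence. Across all settings computed, the list's median stayed between 0.186 and 0.282.

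Early steps, from acetyl-CoA to farnesyl diphosphate, are listed with 7 tested genes and a median difference of 0.215. ACAT2, the cytosolic thiolase that joins acetyl-CoA units, rose by 0.32 (SE 0.0698 unpaired, adjusted p = 0.00514 in the paired fit of 6 arrays). It measured 9.89, 9.94 and 9.84 on ASTX660 arrays 2, 9 and 13 and 9.44, 9.66 and 9.61 with solvent, with no overlap. HMGCS1, which makes HMG-CoA, measured 10.47, 10.4 and 10.09 with ASTX660 and 9.9, 10.13 and 9.9 with solvent. ASTX660 array 13 was below solvent array 9, yet each array exceeded its own pair, by 0.57, 0.26 and 0.19. HMGCS1 rose by 0.34 (paired adjusted p = 0.00514). IDI1, which isomerises isopentenyl diphosphate, measured 11.62, 11.56 and 11.41 against 11.24, 11.37 and 11.34. It rose by 0.22 (paired adjusted p = 0.0132) and its pair 13 differed by 0.08. That call was lost after quantile normalization (adjusted p = 0.0556). Among genes not called, MVD, mevalonate diphosphate decarboxylase, differed by 0.32, FDPS, farnesyl diphosphate synthase, by 0.12, and PMVK, phosphomevalonate kinase, by 0.11. MVK, mevalonate kinase, was the exception at -0.03 (95% interval -0.18 to 0.12).

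Late steps, from squalene to cholesterol, are listed with 9 tested genes, all with a difference above 0 and a median of 0.238. In 8 of them the ASTX660 arrays lay entirely above the solvent arrays, beside 7.59% of all genes. SQLE, the epoxidase that precedes LSS, measured 10.43, 10.44 and 10.28 with ASTX660 and 10.15, 10.2 and 10.12 with solvent, and rose by 0.23 (paired adjusted p = 0.0167). MSMO1, a C4 sterol methyl oxidase, measured 10.65, 10.57 and 10.44 against 10.21, 10.39 and 10.25, and rose by 0.27 (paired adjusted p = 0.00772). EBP, a sterol isomerase, measured 10.56, 10.73 and 10.55 against 10.34, 10.44 and 10.37, and rose by 0.23 (paired adjusted p = 0.0091). In all of these genes the lowest ASTX660 array stood above the highest solvent array. Of 4 bright EBP probe sets, 3 were higher and 1 had a difference that rounds to 0. The calls of SQLE and EBP were lost when both arrays numbered 9 were left out. DHCR7, which acts near the end of the pathway, differed by 0.29. NSDHL and HSD17B7, which take part in demethylation at C4, differed by 0.24 each, SC5D by 0.18 and TM7SF2 by 0.17. None of these genes was called.

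**Figure D1:**
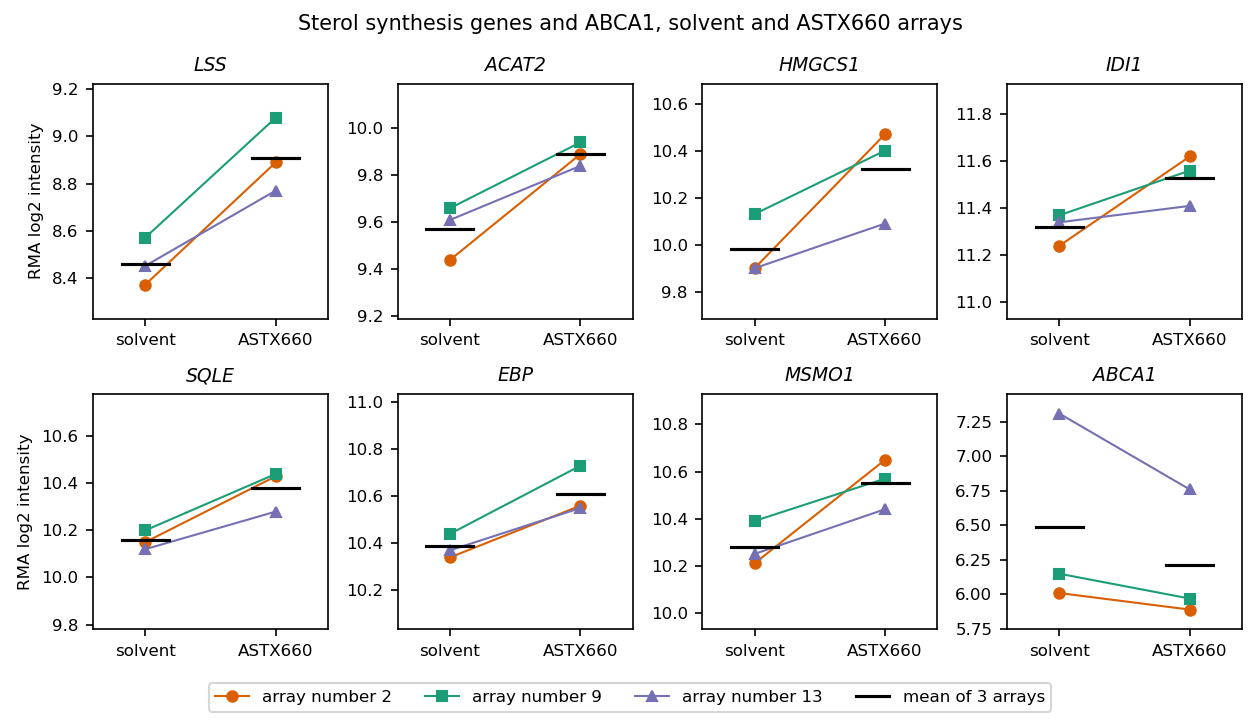
RMA log2 intensity of 7 sterol synthesis genes and ABCA1 on the 3 solvent and 3 ASTX660 arrays, with lines joining arrays of the same number and black bars at the mean of 3 arrays. All lines of the 7 synthesis genes slope upward, as from 8.37 to 8.89 for LSS in pair 2, and all lines of ABCA1 slope downward.

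The 250 bases before the annotated start of 4 of the called sterol genes are shown, from RefSeq on build GRCh38.p14. Each is written 5′ to 3′ on the gene's strand. Capitals mark CCAAT or its reverse complement ATTGG, the core of the site bound by NF-Y, which is known to act beside SREBP at sterol genes.
LSS chr21:46228775-46229024 (- strand): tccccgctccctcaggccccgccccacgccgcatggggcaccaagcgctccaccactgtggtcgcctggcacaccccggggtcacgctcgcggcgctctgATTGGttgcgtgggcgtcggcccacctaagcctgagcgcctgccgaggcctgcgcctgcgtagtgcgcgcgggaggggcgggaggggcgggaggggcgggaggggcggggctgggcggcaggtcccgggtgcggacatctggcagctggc
EBP chrX:48521558-48521807 (+ strand): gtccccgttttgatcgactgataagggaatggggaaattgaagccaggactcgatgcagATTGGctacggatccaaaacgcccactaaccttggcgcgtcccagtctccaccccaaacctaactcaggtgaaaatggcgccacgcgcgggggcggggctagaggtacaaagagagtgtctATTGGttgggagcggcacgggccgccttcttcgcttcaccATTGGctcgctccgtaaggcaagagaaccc
MSMO1 chr4:165327419-165327668 (+ strand): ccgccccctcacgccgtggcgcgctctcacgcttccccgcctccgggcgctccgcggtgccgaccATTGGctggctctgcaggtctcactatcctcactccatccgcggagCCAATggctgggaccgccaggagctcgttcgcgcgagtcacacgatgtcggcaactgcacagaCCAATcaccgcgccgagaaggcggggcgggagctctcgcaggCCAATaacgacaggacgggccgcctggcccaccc
HMGCS1 chr5:43313413-43313662 (- strand): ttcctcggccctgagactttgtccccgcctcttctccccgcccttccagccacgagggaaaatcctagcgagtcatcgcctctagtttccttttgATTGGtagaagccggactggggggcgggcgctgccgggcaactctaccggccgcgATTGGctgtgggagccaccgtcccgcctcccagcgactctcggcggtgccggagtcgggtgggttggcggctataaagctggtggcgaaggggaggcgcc
The window of LSS holds 1 such match, EBP 3, MSMO1 4 and the HMGCS1 window shown 2, and a second annotated HMGCS1 start has 0. In total 14 of the 16 tested sterol genes had a window, and 13 of these held CCAAT on either strand in at least 1 window. That motif was present for 41.1% of the 10226 tested genes with a window and in 32.0% of all 35116 windows. The 9-letter form TCACNCCAC of the sterol regulatory element was found in 0 of the 14 genes, 1.21% of tested genes and 0.883% of windows. Its shorter form CACNCCAC, which every longer match contains, was found in 2 of the 14, 6.65% of tested genes and 4.87% of windows. A match is a description of letters and not a bound site.

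Genes for sterol uptake, transport and regulation differed less. Of 19 listed, 15 were tested, with a median of 0.0798, and the paired fit of 6 arrays called 0 of them. STARD4, a cholesterol carrier between membranes, was higher on every ASTX660 array (9.88, 9.71 and 9.65) than on any solvent array (9.59, 9.42 and 9.54). Its difference was 0.23 and its adjusted p 0.0614 in that fit. INSIG1, which holds SREBP back in the endoplasmic reticulum and is itself a target, measured 10.88, 11.12 and 11.06 against 10.75, 10.81 and 11, so the groups overlapped (difference 0.17, adjusted p = 0.0902 in that fit). INSIG2 differed by 0.18, and the genes for the factors themselves, SREBF1 and SREBF2, by 0.06 and 0.07.

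ABCA1, the cholesterol exporter, had the lowest difference of this group. It measured 5.89, 5.97 and 6.76 with ASTX660 and 6.01, 6.15 and 7.31 with solvent, a difference of -0.28 with an unpaired interval from -1.06 to 0.49. Both arrays numbered 13 were far above the rest, and the groups overlapped. The pair differences were -0.13, -0.18 and -0.55, and the paired adjusted p was 0.301 on 12 arrays and 0.185 on 6. ABCA1 did not pass in any of these fits.

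Fatty acid synthesis genes, many of them also SREBP targets, had a median of 0.149 over 13 tested genes (0.114 without array 2). All 13 were above 0, as were 8071 of all 12689 tested genes. The pair medians of 0.283, 0.152 and 0.0451 were uneven, and 0 of the 13 were called in the paired fit of 6 arrays. GPAM, which starts glycerolipid synthesis, had no overlap between groups, at 7.35, 7.27 and 7.07 with ASTX660 against 6.98, 7 and 6.88. Its difference was 0.28, while a second bright probe set of GPAM differed by -0.12. FADS2, a fatty acid desaturase, differed by 0.27, ELOVL6, an elongase, by 0.23, and SCD, the stearoyl-CoA desaturase, by 0.17. FASN, the fatty acid synthase itself, differed by 0.08 and ACLY, which makes its acetyl-CoA, by 0.05.

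The 5 tested IAP genes, XIAP and BIRC2 among them, did not differ beyond their spread. XIAP measured 9.41, 9.25 and 9.33 with ASTX660 and 9.24, 9.17 and 9.18 with solvent. These do not overlap, yet the difference of 0.14 had a 95% interval from -0.05 to 0.33 and limma adjusted p-values of 0.762 unpaired and 0.274 in the paired fit of 6 arrays. BIRC2 measured 10.11, 9.91 and 10.03 against 9.89, 9.89 and 10.07, with overlap (difference 0.07, interval -0.1 to 0.24). BIRC5, the mitotic IAP survivin, differed by 0.04, BIRC6 by 0.06 and NAIP by -0.05. BIRC6 was at 9.62 on ASTX660 array 2 and at 9.1 and 9.12 on the others, and without array 2 its difference was -0.11. Over the 5 tested IAP genes the median was 0.0577. BIRC3 was not analysed here.

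Among natural IAP antagonists, DIABLO, encoding SMAC, whose N-terminus this class of drug imitates, differed by 0.07 (interval -0.04 to 0.18) and the protease gene HTRA2 by 0.06. XAF1, which binds XIAP, measured 7.97, 8.57 and 8.47 with ASTX660 and 8.46, 8.7 and 8.61 with solvent. Array 2 made most of that difference of -0.26, which was -0.07 without it.

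**Figure D2:**
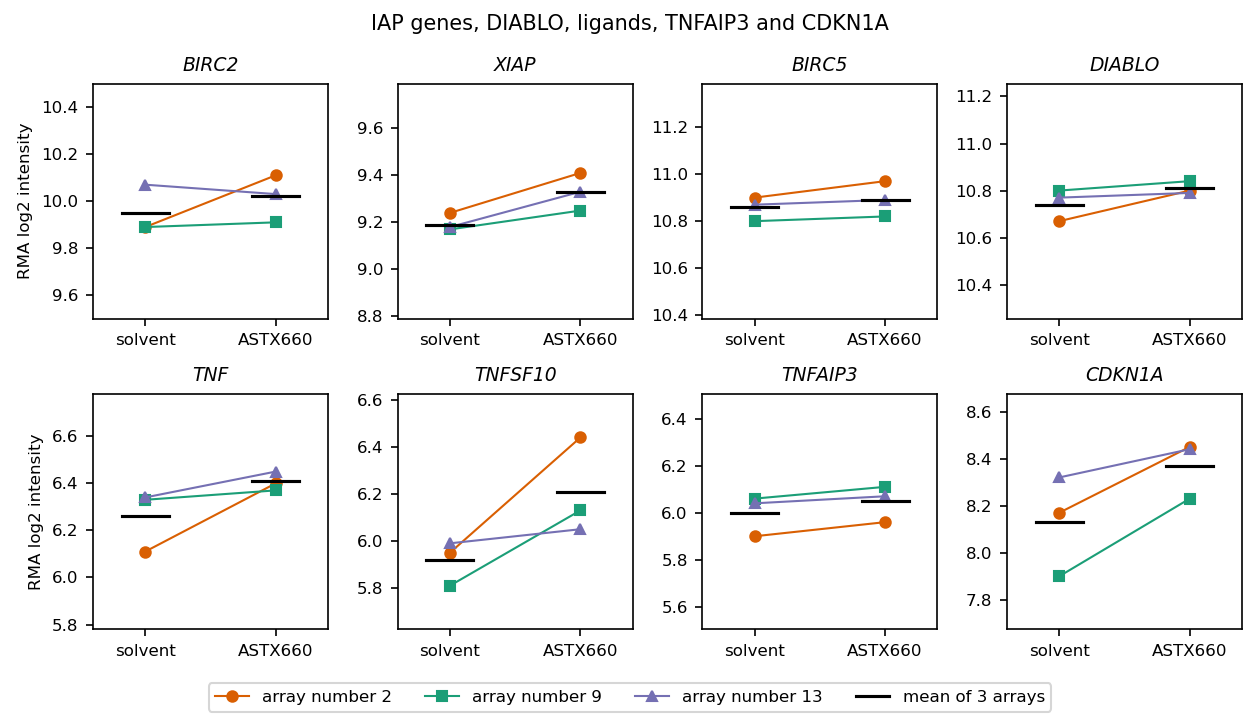
RMA log2 intensity of BIRC2, XIAP, BIRC5, DIABLO, TNF, TNFSF10, TNFAIP3 and CDKN1A on the 3 solvent and 3 ASTX660 arrays, joined by array number, with black bars at the mean of 3 arrays. CDKN1A, XIAP, TNF, TNFSF10 and TNFAIP3 are higher in every pair, as from 8.17 to 8.45 for CDKN1A in pair 2. None of these genes was called.

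Ligands, receptors and adaptors of death signalling gave small differences. TNF, the ligand whose signal the cIAPs restrain, measured 6.4, 6.37 and 6.45 with ASTX660 and 6.11, 6.33 and 6.34 with solvent (difference 0.15, interval -0.03 to 0.32). The 3 ASTX660 values lay just above the highest solvent value. TNFSF10, encoding TRAIL, measured 6.44, 6.13 and 6.05 against 5.95, 5.81 and 5.99. Its difference of 0.29 became 0.17 without array 2, and its adjusted p was 0.701 unpaired and 0.186 in the paired fit of 6 arrays. The receptor genes TNFRSF1A, FAS, TNFRSF10A and TNFRSF10B differed by -0.01, 0.09, 0.11 and 0. The decoy receptor gene TNFRSF10C had means of 4.5 with ASTX660 and 4.79 with solvent and no overlap, at dim intensities near the array median, and was not called. CASP8 differed by 0.12, its inhibitor CFLAR by 0.07 and RIPK3, the kinase of necroptosis, by 0.06. The median was 0.0762 over 16 extrinsic apoptosis genes, 0.0573 over 20 genes of the TNF receptor complex, 0.0417 over 7 caspase and apoptosome genes and 0.0451 over 12 BCL2 family genes. In each of these lists 0 genes were called. RIPK1 and TRAF2 were not analysed here.

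NF-kB target genes stayed close to all genes as a group. The 31 tested NF-kB target genes had a median of 0.0284, equal to that of all genes, and a median of 0.00324 without array 2. The feedback genes NFKBIA and TNFAIP3 differed by -0.08 and 0.05. TNFAIP3 measured 5.96, 6.11 and 6.07 with ASTX660 and 5.9, 6.06 and 6.04 with solvent, with overlap. CD83, an activation marker, and REL, an NF-kB subunit, differed by 0.19 and 0.22, and neither was called. The 12 tested genes of the non-canonical arm had a median of 0.0112. MAP3K14, encoding NIK, was at 5.46, 5.22 and 5.1 against 5.05, 5.18 and 4.89 (difference 0.22, adjusted p = 0.719), TRAF3, its negative regulator, differed by 0.1, and the receptor gene CD40 by -0.18. NFKB2 and RELB were too dim to be tested, with group means of 4.18 to 4.35.

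CDKN1A, the p53 target that encodes the cell-cycle inhibitor p21, measured 8.45, 8.23 and 8.44 with ASTX660 and 8.17, 7.9 and 8.32 with solvent. It was higher in all 3 pairs with overlap between groups, by 0.24 on average (adjusted p = 0.701 unpaired, 0.144 with the block and 0.129 in the paired fit of 6 arrays). The 32 tested p53 targets had a median of 0.0411, and 1 was called in each direction. ACER2, a Golgi ceramidase, rose by 0.5 (5.52, 5.21 and 5.09 against 4.95, 4.63 and 4.75, paired adjusted p = 0.0354). That call was lost when both arrays numbered 2 or both numbered 9 were left out, and the solvent values lay close to the array medians. SFN, encoding 14-3-3 sigma, fell by 0.38 (7.24, 7.32 and 7.19 against 7.83, 7.61 and 7.46, paired adjusted p = 0.0261), and its call was lost without both arrays numbered 9. In both genes no ASTX660 array overlapped a solvent array. ACER2 is also a gene of sphingolipid metabolism, where all 17 tested genes had a difference above 0, as had 8071 of all 12689 tested genes. In pair 13 alone these counts were 12 of 17 and 6157 of 12689. The list's median was 0.0712, beside 0.0284 for all tested genes, and ACER2 was its only called gene.

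Of the 27 called genes outside sterol synthesis, TMEM97, encoding a sterol-sensitive membrane protein that binds NPC1, rose by 0.24 (11.03, 11.13 and 10.93 against 10.72, 10.89 and 10.76). TUBA1A, an alpha-tubulin, rose by 0.21 and had ASTX660 values within a narrow range (11.58, 11.6 and 11.59 against 11.31, 11.33 and 11.5). HSP90AA1, the inducible cytosolic HSP90, rose by 0.08, from 13.57 ± 0.0172 to 13.64 ± 0.0273 (SD, n = 3 each), the smallest difference among the 34. Its call was lost without both arrays numbered 2 or both numbered 13. PTGER4, a prostaglandin E2 receptor, rose by 0.38, and its second bright probe set differed by -0.08. WIPI1, an autophagy protein, rose by 0.58, with both of its probe sets higher (0.41 and 0.58).

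BCLAF3 had the highest difference of all tested genes, 0.64 (5.7, 5.4 and 5.34 against 5, 4.61 and 4.93, paired adjusted p = 0.00525), and no overlap. Its solvent values lay close to the array medians, and it has a single bright probe set. TTC7B, a scaffold of a lipid kinase complex at the plasma membrane, rose by 0.58, from a solvent mean of 4.19 that lay below the median of every array, so this ratio starts near background, and its call was lost without both arrays numbered 13. The zinc finger gene ZNF280B rose by 0.52, while 2 of its 3 bright probe sets pointed the other way, as low as -0.12. The rest of the highest 8 without overlap were CDK5R1 (0.53), ZNF17 (0.5), ACER2, ZBTB37 (0.49) and MIA2 (NCBI gene 4253, 0.49), and of these 5 only ACER2 was called. The lowest 8 without overlap were H1-3 (-0.6), H1-4 (-0.5), CLCA1 (-0.47), RNASE1 (-0.45), KCNN1 (-0.45), ARHGEF28 (-0.45), C9orf163 (-0.45) and CHST3 (-0.43), and the fit called H1-3 and H1-4 among them.

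The linker histone genes H1-3 and H1-4 fell. H1-3 measured 7.17, 8.22 and 8.19 against 8.26, 8.48 and 8.65, a fall of 0.6 (paired adjusted p = 0.00514), with pair differences of -1.09, -0.26 and -0.46. Array 2 was more than a log2 unit below the other ASTX660 arrays, and without it the unpaired difference was -0.26. H1-4 measured 6.49, 6.92 and 6.9 against 7.17, 7.45 and 7.17, a fall of 0.5 (paired adjusted p = 0.00525), or -0.36 without array 2. With the block on 12 arrays neither was called (adjusted p = 0.211 and 0.16), and with robust variances the 6-array call of H1-3 was lost (adjusted p = 0.327). Neither gene's ASTX660 arrays overlapped the solvent arrays, and both have a single bright probe set. Linker histone genes are near-identical in parts, so their probes may read relatives.

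The other genes that fell included THRAP3, SRRM2 and SCAF11, linked to splicing, SYNCRIP, an RNA-binding protein, TPR, of the nuclear pore basket, RIF1, of replication timing and break repair, and NUCKS1, a chromatin protein. THRAP3 measured 9.42, 10.14 and 10.69 against 10.43, 10.49 and 10.81, a fall of 0.49 (paired adjusted p = 0.00683). The pair differences were -1.01, -0.35 and -0.12, and the groups overlapped. RIF1 fell by 0.41 and TPR by 0.38, with array 2 again lowest, at 8.44 and 8.95. The calls of THRAP3, RIF1, TPR and SYNCRIP were lost with robust variances, and these 4, SRRM2 and NUCKS1 were also lost after quantile normalization. ASTX660 array 2 was the lowest of the 6 arrays in 12 of the 13 genes that fell and the highest in 12 of the 21 that rose. It lay outside the other 5 arrays, on either side, in 59.2% of all tested genes. The called genes were picked by these same values, so the counts only describe them.

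The probe sets of the genes that fell disagreed. Of the 10 that have several bright probe sets, 9 had at least 1 whose difference was of the opposite sign, against 6 of 13 such genes among those that rose. In EBP and HSP90AA1, counted among those 6, the opposite difference rounds to 0. A gene with more probe sets has more chances of an opposite sign, and NUCKS1 has 8. The share over all tested genes was not computed, so it cannot be told whether this is particular to the genes that fell. THRAP3's 3 probe sets ran from -0.49 to 0.02, RIF1's 7 from -0.41 to 0.14, and SCAF11's 7 from -0.3 to 0.43. The 4 probe sets each of SQLE and IDI1, and both of LSS and HMGCS1, were all higher with ASTX660. The difference between 3′ and 5′ probe sets was also highest on ASTX660 array 2 for ACTB, but not for GAPDH. Its part in these values was not tested.

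**Figure D3:**
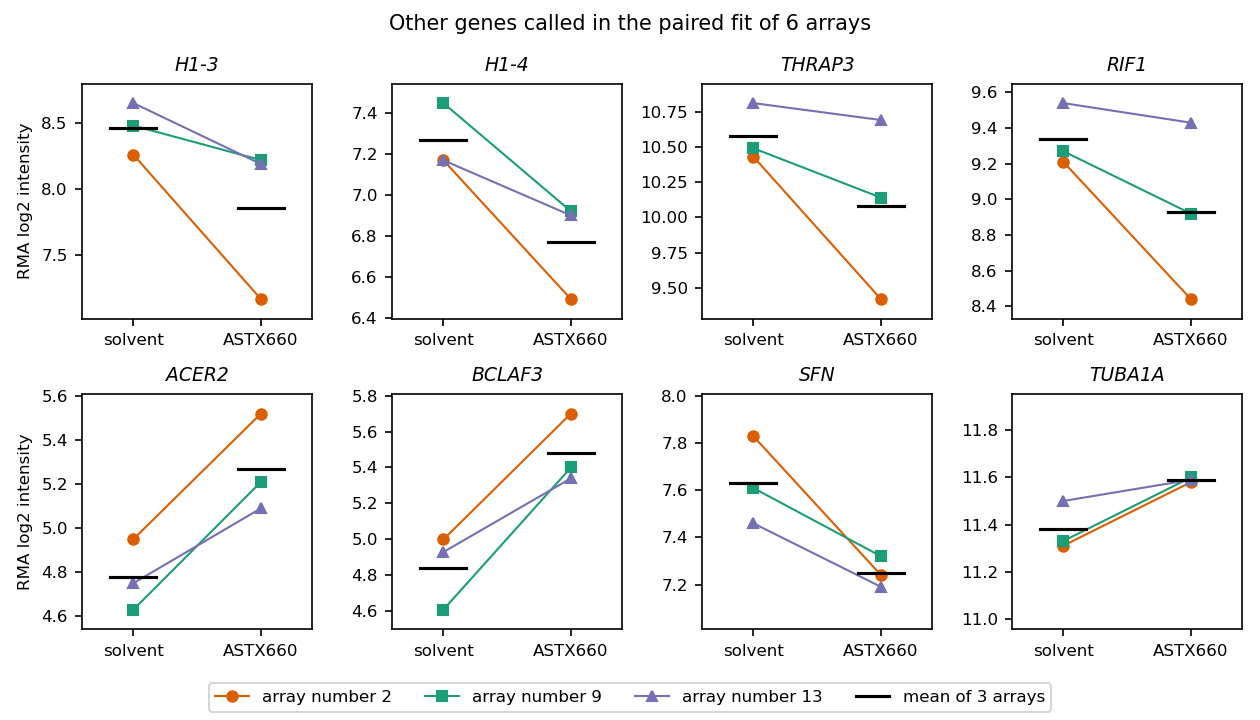
RMA log2 intensity of H1-3, H1-4, THRAP3, RIF1, ACER2, BCLAF3, SFN and TUBA1A on the 3 solvent and 3 ASTX660 arrays, joined by array number, with black bars at the mean of 3 arrays. In H1-3, THRAP3 and RIF1 the line of pair 2 is the steepest, ending at 7.17, 9.42 and 8.44.

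ASTX660 given after SGI-110 was compared with SGI-110 in the other 6 arrays, whose group means do not enter the difference from solvent. Fits on all arrays of the series draw each gene's spread, and any block on the title number, from both sets. Results of such fits are therefore not independent between the 2 comparisons. The labels do not state whether SGI-110 stayed on during the last 9 h. The comparison after SGI-110 may therefore include a difference in SGI-110 exposure. The difference between the 2 ASTX660 effects was called by limma for 0 of 12689 genes (0%), and 204 (1.61%) reached an unadjusted p under 0.05. The median standard error of that difference was 0.12. Across the 12689 genes the effects correlated at r = 0.382, or 0.378 without the sterol list. This describes genes that share the cell line and array platform, and genes are not independent replicates.

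Most sterol genes were higher in both settings. After SGI-110 the list's median was 0.294, beside 0.0148 for all genes, and 13 of the 16 were higher in all 3 pairs (17.4% of all genes). With the title number as a block on all 12 arrays, that comparison called 10 genes (0.0788%), 7 of them in the sterol list. The 10 were ACAT2, EBP, FDPS, IDI1, INSIG1, LSS, MSMO1, SCD, SQLE and TUBA1A. A paired fit on the 6 arrays of that comparison alone called 7 genes, with 4 of the 16 sterol genes among them. LSS, the 1 gene that the same blocked fit called with ASTX660 alone, is among the 10. Both calls of LSS rest on the same estimate of its spread and the same block, so the overlap is no independent repeat. Without the block limma called 0 genes in that comparison (370 at an unadjusted p under 0.05). With the block it called 0 without the intensity trend, 1 with the mean of all probe sets per gene, and 2, 1 and 0 when all arrays numbered 2, 9 or 13 were left out. LSS after SGI-110 measured 8.43, 8.7 and 8.47 on arrays 2, 9 and 13 with ASTX660 and 8.17, 8.28 and 8.14 without, a difference of 0.33. The 2 effects on LSS differed by -0.12 (SE 0.128, unadjusted p = 0.373). MSMO1 had a difference of 0.44 after SGI-110 and 0.27 without it, and these differed by 0.17 (SE 0.122, unadjusted p = 0.179). FDPS, called after SGI-110 with the block, differed between the settings by 0.16 (SE 0.121, unadjusted p = 0.209), so a difference between them was not shown. H1-3 was at -0.02 and THRAP3 at 0.02 after SGI-110. Their differences between the settings were 0.58 (SE 0.293, unadjusted p = 0.069) and 0.51 (SE 0.33, unadjusted p = 0.143). TTC7B differed by 0.58 alone and by 0.03 after SGI-110 (unadjusted p = 0.00531), which did not pass adjustment.

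**Figure D4:**
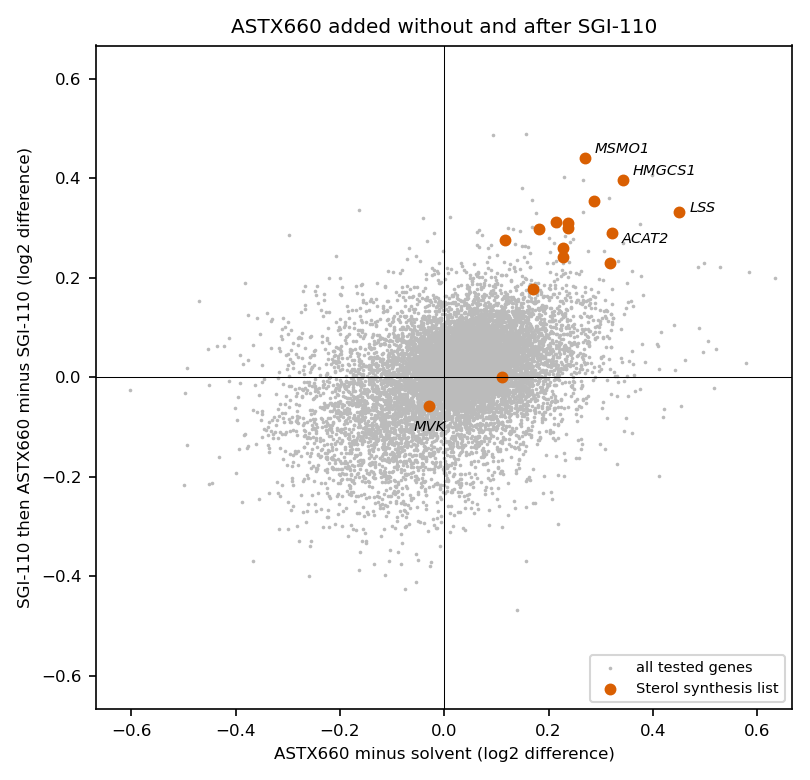
Log2 difference of ASTX660 minus solvent (horizontal) and of SGI-110 then ASTX660 minus SGI-110 (vertical) for the 12689 tested genes in grey, with the 16 tested sterol synthesis genes in orange. Most orange points lie to the upper right, with LSS at 0.45 and 0.33, and MVK lies near the centre at -0.03 and -0.06.

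Other gene groups gave medians close to that of all genes. The medians were 0.000157 for 27 genes of G1/S and replication, 0.0305 for 34 of G2/M and mitosis, 0.0373 for 25 of the stress response, 0.0242 for 17 of oxidative and heat stress and 0.0222 for 16 of MYC and ribosome synthesis. Interferon-stimulated genes had 0.0617 over 26, with RIGI, an RNA sensor, at 0.26 and OAS2 at -0.33, and neither was called. Myeloid maturation genes had -0.0184 over 14, granule genes -0.0373 over 9 and the HOXA and MEIS1 programme 0.0172 over 4. SLC7A11, the cystine carrier, differed by 0.31, or 0.41 without array 2. RRM2, a ribonucleotide reductase subunit, differed by 0.09 with no overlap, and LDHA by -0.04. In each of these 9 lists the paired fit of 6 arrays called 0 genes.

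The myeloid identity of the line was visible in both groups. MPO was at 13.38 with ASTX660 and 13.36 with solvent, LYZ at 13.21 and 13.17, and CEBPA at 10.75 and 10.76. Of 10 myeloid leukaemia markers 6 were bright enough to test, with a median of 0.0151, and ANPEP, KIT and CD34 were not bright enough. The 7 tested erythroid markers had a median of -0.131 (-0.151 without array 2), with EPOR at -0.23 and TAL1 at -0.27 and no overlap in either. The ASTX660 arrays lay entirely below the solvent arrays in 4 of the 7, beside 4.68% of all genes. The other 3 of the 7 had a difference above 0, at most 0.05. HBB was at 5.68 and 5.82, while HBD, KLF1, EPB42 and AHSP were too dim to test. The summed linear intensity of the tested erythroid markers ran from 5161 to 6262 with ASTX660 and from 5099 to 6096 with solvent. The 9 tested lymphoid markers had a median of -0.159, or -0.0504 without array 2, and the 9 fibroblast or epithelial markers -0.012. Among lymphoid markers CD79A was at 5.35 on ASTX660 array 2 and between 5.88 and 6.09 on the other 5, and CD3D likewise lowest there, at 4.21. The summed intensity of the tested lymphoid markers ran from 721.6 to 756.6 with ASTX660 and from 749.3 to 768.3 with solvent. The part of these dim probes in the results was not tested.

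**Figure D5:**
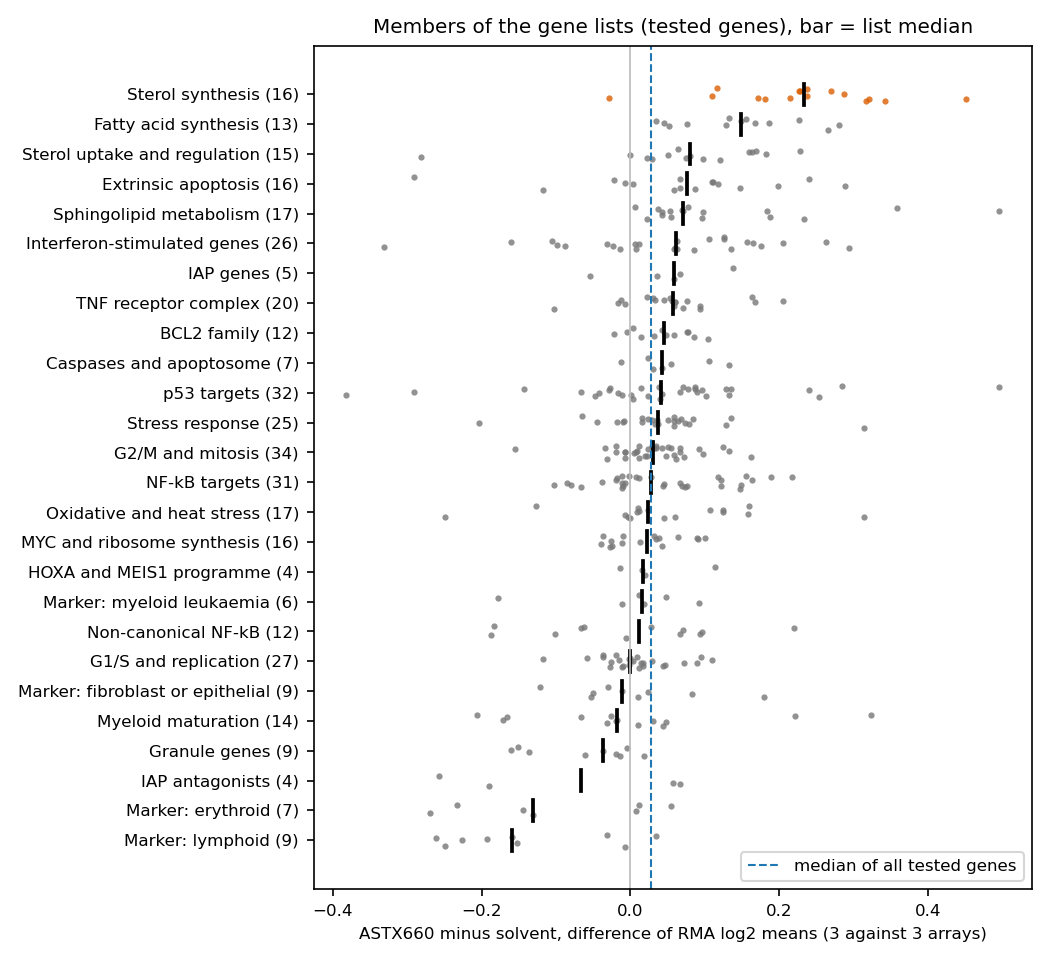
Log2 difference of ASTX660 minus solvent for every tested member of 26 gene lists, with the number of tested members in brackets, black bars at list medians and a dashed line at the median of all tested genes (0.0284). The Sterol synthesis list, in orange, has the highest median (0.233), and the lymphoid markers have the lowest (-0.159).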

How the data were processed

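Deposited values were log2 intensities from RMA, made by the authors with the affy package per the submitters' processing notes, with no version. The sources used here do not say if the arrays shared 1 normalization. Of 54675 probe sets, 41091 carried 1 gene symbol and were used. Each gene's brightest probe set on average was kept, and tested if above the array median on at least 3 arrays (12689 of 19777 genes).

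Tests used limma 3.58.1 (R 4.3.3) on all 12 arrays with 1 mean per group, intensity-trended moderated variances (8 residual degrees of freedom) and Benjamini-Hochberg adjustment over all tested genes. The script was tested on simulated data. Fits with the title number as a block, on 12 or 6 arrays, are called paired. Deviations of same-numbered ASTX660 and solvent arrays from their group means correlated at 0.321, 0.471 and 0.55 for numbers 2, 9 and 13. All were above the limit of 0.1 set for pairing. Other combinations were below 0. Deviations within a group sum to 0, which pushes these other values down, so they add no support for pairing. Alternatives changed arrays, scaling, filter, probe set rule and variance model. The number of arrays limits the precision.

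Named genes were the 8 highest and lowest without overlap, the genes called with or without block or ASTX660 array 2, the 8 smallest p of either fit, 2 genes per list and fixed drug-target and sterol genes. Genes of the paired 6-array fit and others, such as ABCA1, SCD and ELOVL6, were named after their values were seen. The members and the 26 lists were chosen with earlier results of these data known.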

Additional observations from a re-analysis of the deposited data

How the results depend on the processing

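Without the title number as replicate block, 0 genes were called by limma under every array choice, scaling, filter, probe set rule and variance model tried. With the block on 12 arrays 1 gene was called, as also without ASTX660 array 2, after median centring, and without ASTX660 or solvent array 13. It was 2 after quantile normalization, without the brightness filter and with robust variances, and 0 without ASTX660 array 9, solvent array 2 or 9, or all arrays of any number, with the mean of all probe sets and without the intensity trend. On 6 arrays with the block the 34 calls became 21 after quantile normalization (18 shared), 119 after median centring (34 shared), 32 without the filter (30 shared) and 49 with robust variances (29 shared). Leaving out both arrays numbered 2, 9 or 13 gave 174, 51 and 106, with 1 residual degree of freedom.

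Genes at an unadjusted p under 0.05, 894 without pairing, numbered 1464 with the block on 12 arrays, 1766 on 6 arrays, 1512 without the filter and 1754 over all probe sets, and 358 to 1279 when arrays were left out. That number was 540 without solvent array 9, 511 without ASTX660 array 2, 1279 and 1267 without ASTX660 array 9 or 13, and 519 and 358 without all 4 arrays numbered 9 or 2. The difference between the 2 ASTX660 effects was called for 0 genes throughout. LSS differed by 0.26 to 0.52 over 46 settings and was called in 16 of 26 paired ones (adjusted p from 3.64e-08 to 0.314). Of 5479 recomputed gene values 0 were called and reversed, 109 uncalled ones changed sign, and 310 were called only under an alternative. Block settings with another scaling, filter, probe set rule or variance model, and those that leave out arrays other than ASTX660 array 2 alone, were added after seeing the data.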
